A study of Mus musculus with 6 samples.

Results

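Acute-phase genes Saa3, Lcn2, Saa1, Saa2, Hp, Orm1, Ptx3 and Serpina3n were examined in CD73+ and CD73- AD-MSCs, the mesenchymal stromal cells grown from mouse adipose tissue. They are 8 of the 18193 genes that could be read from the arrays, and 10 probe sets, each a set of oligonucleotides that together measure a transcript, are annotated to exactly 1 of them. The group was chosen by the large difference of Saa3 and Lcn2 between these same arrays, with the other genes added by name as members of the same protein class. Their values in this contrast are therefore given as a description, with no test.

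RNA came from cells of the groin fat of adult C57BL/6 mice, cultured in low sugar DMEM with 10% fetal bovine serum. Flow cytometry had separated CD73+ from CD73- cells, CD73 being an ectoenzyme that turns AMP into adenosine, and both subgroups were grown on and taken at the fifth passage with no further agent. There were 3 Affymetrix mouse expression arrays for each subgroup. Nothing in the labels tells whether these were separate cultures or mice, so p-values here measure the spread between arrays, which may be technical. Nt5e, the gene of CD73, had 7.84, 7.60 and 7.74 on the CD73+ arrays and 7.29, 6.39 and 6.84 on the CD73- arrays of its brightest probe set, a log2 difference of 0.88 without overlap, and differences of -0.12 and 0.033 on its other probe sets.

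The acute-phase response is the shift in secreted proteins that follows infection or injury. Cytokines of the IL-6 family act through the receptor chain gp130 and the factor STAT3, and IL-1 and TNF act through NF-kB, and with C/EBP factors these switch on serum amyloids, haptoglobin, orosomucoid and protease inhibitors in liver. Fat tissue, fibroblasts and macrophages make some of the same proteins themselves, and in mice Saa3 is the serum amyloid known for production outside the liver.

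Values are log2 signals as deposited, so that a difference of 1 is a doubling. Levels of different probe sets cannot be compared as amounts of RNA, because probes differ in how strongly they bind. Shares of probe sets that a signal exceeds, and mean levels over several genes, therefore describe signal only. Across probe sets, which are not independent replicates, r was 0.997 to 0.998 within a subgroup and 0.993 between subgroups. The poly-A controls, bacterial transcripts normally added before labelling, were lower by 0.93 in CD73+ AD-MSCs. Scaling the arrays to these 12 probe sets would move the median difference over all probe sets from -0.00019 to 0.93, so each direction below is relative to the deposited scale. Other scalings moved that median to between -0.033 and -0.0038.

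Saa3, the serum amyloid made by fat tissue and macrophages, had 10.31, 10.33 and 10.41 on the 3 CD73+ arrays and 8.06, 7.95 and 7.995 on the 3 CD73- arrays. The CD73+ arrays lay far above the CD73- arrays, with no overlap. The log2 level averaged 10.35 ± 0.056 (SD, n = 3) against 8.003 ± 0.053 (SD, n = 3), a difference of 2.35, or 5.08-fold. This difference ranked 1 among the 18193 genes ordered from highest to lowest. Lcn2, the secreted protein that binds the iron carriers of bacteria, had 10.45, 10.51 and 10.60 on the CD73+ arrays and 8.62, 8.70 and 8.44 on the CD73- arrays. Its mean log2 level was 10.52 ± 0.078 (SD, n = 3) against 8.59 ± 0.14 (SD, n = 3), a difference of 1.93, or 3.82-fold, which put it at rank 6. Both signals were bright, and 89.1% and 91.5% of probe sets had a mean at or below theirs.

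The other serum amyloids did not share this pattern. Saa1 and Saa2, the forms known best from liver, lie beside Saa3 in build GRCm38.p6, Saa3 at chr7:46711998-46719615, Saa1 at chr7:46740497-46743181 and Saa2 at chr7:46751833-46754313. Saa1 was read by probe set 1450788_at, with log2 levels of 2.73, 2.65 and 2.65 on the CD73+ arrays and 2.77, 2.82 and 2.69 on the CD73- arrays. Its mean was higher than that of only 3.98% of probe sets, the array minima being 2.02 to 2.11. The subgroups overlapped, and the difference was -0.083. A second probe set annotated to Saa1, 1419075_s_at, had 4.04, 3.999 and 4.29 on the CD73+ arrays and 4.31, 4.34 and 3.98 on the CD73- arrays, a difference of -0.10 with overlap. Saa2 was read by 1449326_x_at, with 3.17, 2.94 and 3.57 on the CD73+ arrays and 3.53, 3.20 and 3.25 on the CD73- arrays, again a difference of -0.10 with overlap. The annotation gives the latter pair of probe sets the same transcript accession, which RefSeq assigns to Saa2, so that Saa1 and Saa2 were not told apart there. The deposited values carry no detection call.

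The promoters of Saa3, Saa1, Lcn2 and Ptx3 are shown because these genes contrast in the results: a large difference in Saa3 and Lcn2, a dim signal in Saa1, and a bright signal that hardly differed in Ptx3. Each sequence is the 250 bases before the RefSeq start in build GRCm38.p6, 5′ to 3′ on the gene's strand. Capitals mark matches to the C/EBP pattern TTNNGNAA on either strand.
Saa3, chr7:46715677-46715926, minus strand: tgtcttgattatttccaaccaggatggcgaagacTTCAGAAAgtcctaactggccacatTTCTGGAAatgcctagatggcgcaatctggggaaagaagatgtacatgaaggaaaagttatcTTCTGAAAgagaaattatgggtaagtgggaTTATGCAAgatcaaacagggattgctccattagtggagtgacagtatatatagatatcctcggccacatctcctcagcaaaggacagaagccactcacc
Saa1, chr7:46742981-46743230, minus strand: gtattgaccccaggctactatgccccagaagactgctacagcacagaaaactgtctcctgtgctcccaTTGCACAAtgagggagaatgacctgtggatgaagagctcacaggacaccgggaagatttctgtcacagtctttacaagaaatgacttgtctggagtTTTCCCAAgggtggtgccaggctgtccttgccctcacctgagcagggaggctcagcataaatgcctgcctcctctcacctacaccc
Lcn2, chr2:32387740-32387989, minus strand: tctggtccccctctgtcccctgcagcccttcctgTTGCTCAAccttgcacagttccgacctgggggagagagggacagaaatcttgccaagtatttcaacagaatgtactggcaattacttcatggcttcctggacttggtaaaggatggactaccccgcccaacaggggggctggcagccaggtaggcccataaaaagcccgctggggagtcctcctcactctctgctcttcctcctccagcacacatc
Ptx3, chr3:66219637-66219886, plus strand: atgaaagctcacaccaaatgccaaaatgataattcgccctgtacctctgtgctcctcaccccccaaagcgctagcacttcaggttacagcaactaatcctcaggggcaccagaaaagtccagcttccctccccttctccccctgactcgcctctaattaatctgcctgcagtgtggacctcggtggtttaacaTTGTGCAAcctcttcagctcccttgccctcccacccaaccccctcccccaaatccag

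The Saa1 and Saa2 windows were identical at 94.8% of aligned positions, and Saa1 and Saa3 at 44.7%. RefSeq gave windows for 6 of the 8 genes, and Hp and Orm1 had none. The C/EBP pattern had 4 matches in Saa3, 2 each in Saa1 and Serpina3n, and 1 each in Lcn2, Saa2 and Ptx3. It occurs in 36.8% of 32851 windows of the same length. The STAT pattern TTCNNNGAA, the AP-1 pattern TGANTCA, the TATA pattern TATAAA and the NF-kB consensus had no match in any of the 6 windows, against 7.02%, 6.75%, 12.4% and 3.9% of all windows, each searched on both strands, so that no matches of different patterns overlapped. A match describes letters only. Each of the 6 windows had at least 1 C/EBP match, and any part of these matches in the levels was not tested. The Saa3 window lies inside the annotated span of the gene, and those of Saa1 and Serpina3n overlap the annotated spans of theirs in part.

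Serpina3n, an inhibitor of serine proteases made in liver and in injured tissue, had 5.94, 5.87 and 5.70 on the CD73+ arrays and 5.18, 5.23 and 5.28 on the CD73- arrays. All CD73+ arrays lay above all CD73- arrays. The mean log2 level was 5.84 ± 0.12 (SD, n = 3) against 5.23 ± 0.049 (SD, n = 3), a difference of 0.61, or 1.53-fold, with a signal near the array medians of 5.28 to 5.37. Ptx3, the long pentraxin that marks microbes for uptake, had 12.22, 12.24 and 12.30 on the CD73+ arrays and 12.33, 12.28 and 12.29 on the CD73- arrays of its bright probe set, 1418666_at. The subgroups overlapped and differed by -0.048, at a signal that 99.2% of probe sets did not exceed. Its dim probe set, 1456903_at, had 4.76, 4.87 and 4.62 against 4.70, 4.85 and 4.596, a difference of 0.034 that also lay within the spread of the arrays. Serpina3n lies at chr12:104406646-104414334 and Ptx3 at chr3:66219887-66225806.

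Hp, haptoglobin, which binds free hemoglobin, had 5.51, 5.51 and 5.53 on the CD73+ arrays and 4.78, 5.40 and 5.50 on the CD73- arrays. The values did not overlap, but the highest CD73- array, at 5.50, came close to the lowest CD73+ array, at 5.51. The difference was 0.29 and rested on CD73- replicate 1, without which it was 0.067. Orm1, orosomucoid, a plasma carrier protein, had 3.44, 3.15 and 3.40 on the CD73+ arrays and 3.08, 2.99 and 3.13 on the CD73- arrays. The subgroups were just apart, with a difference of 0.26, at a level that exceeded only 12.1% of probe sets. Hp lies at chr8:109575128-109579172, Orm1 at chr4:63344556-63348163 and Lcn2 at chr2:32384637-32387739.

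**Figure D1:**
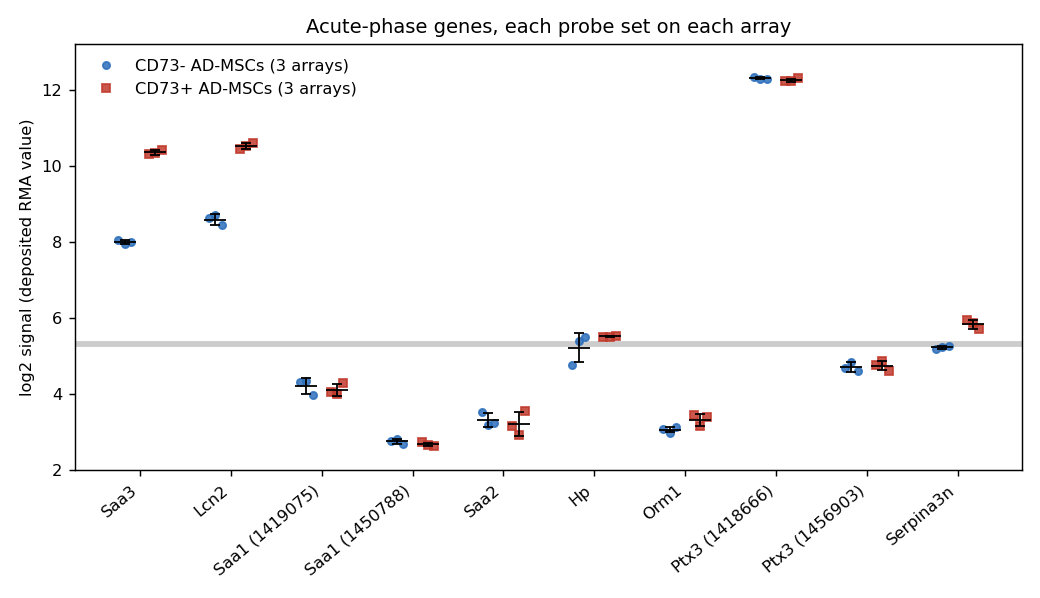
Log2 signal (vertical axis) of the 10 probe sets of the acute-phase genes on each of the 3 CD73- (blue circles) and 3 CD73+ (red squares) arrays, with the mean (line) and SD (bar), and the range of the array medians as a grey band. Saa3 and Lcn2 stand apart, from means of 8.003 and 8.59 to 10.35 and 10.52, while both Ptx3 probe sets and the dim Saa1 and Saa2 probe sets overlap.

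In all, 5 of the 10 probe sets, those of Saa3, Lcn2, Serpina3n, Hp and Orm1, were higher in CD73+ AD-MSCs without overlap, and 0 were lower without overlap. Over all probe sets 17.7% were higher and 17.2% lower without overlap. Since this contrast chose the group, nothing is read from that count. Without any 1 array the difference of Saa3 stayed between 2.31 and 2.37, that of Lcn2 between 1.86 and 1.99 and that of Serpina3n between 0.56 and 0.68. Under quantile normalization, median centring and cyclic loess these 5 probe sets were again higher without overlap. Scaled to the poly-A controls all 10 were higher, Saa3 by 3.27 and Lcn2 by 2.86, and the bright Ptx3 probe set by 0.88, close to the shift of 0.93 that this scaling gives the median probe set.

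**Figure D2:**
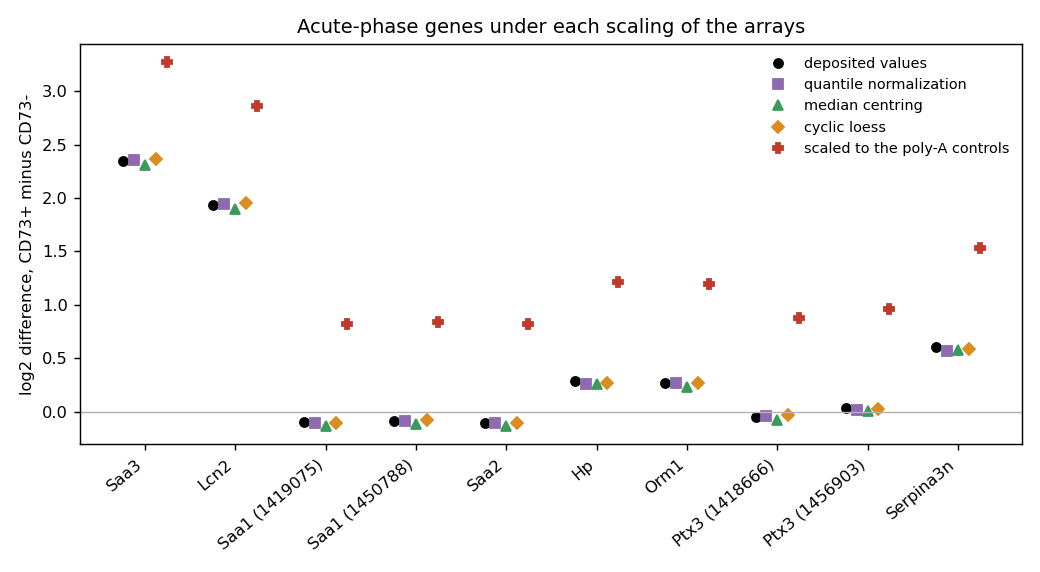
Log2 difference, CD73+ minus CD73- AD-MSCs (vertical axis), of the 10 probe sets on the deposited values and under each of 4 scalings of the arrays. The first 4 symbols of each probe set nearly coincide, and scaling to the poly-A controls (red crosses) raises every probe set by 0.93.

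Genes whose values over the 6 arrays ran closest to those of Saa3 and Lcn2 were found by the root mean square distance between centred log2 values, among 16429 genes. Nearest to Saa3 were Tgfbi, which encodes a TGF-beta-induced matrix protein (distance 0.13), Gas1, a growth arrest protein (distance 0.19), and Olr1, a receptor for oxidised LDL (distance 0.23). Nearest to Lcn2 were Serpinb1a, an inhibitor of neutrophil proteases (distance 0.086), Gas1 (distance 0.090) and Aoc3, a vascular adhesion protein (distance 0.13). These genes have in common a difference of between 1.70 and 2.14 that carries most of the likeness, since each subgroup has 3 arrays of nearly equal value.

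Genes around the acute-phase proteins were read in 6 lists, 1 brightest probe set per gene, and tested with limma, with p adjusted over all probe sets. Of 87 genes measured, 24 were higher and 8 lower in CD73+ AD-MSCs at an adjusted p under 0.05. Some genes not called had other probe sets that passed. Higher were 2 of 5 for Il1rap, 3 of 4 for Stat3 and 1 of 2 for Steap4. The same held for 1 of 3 for Scarb1, 2 of 4 for Slc11a2 and 1 of 3 for Steap3. Lower was 1 of 4 for Il6st. Over all genes read, 10.1% were higher and 12.6% were lower, with a median difference of -0.018. The lists were compiled with earlier results of these data known, so nothing is read from their counts against these shares.

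Among the inducing cytokines and their receptors, 6 of 14 measured genes were higher and 1 was lower, with a median difference of 0.093. Lifr, the receptor chain for LIF that signals with gp130, rose by 0.85 (standard error, SE, 0.073, limma adjusted p = 0.000443), with a further probe set that rose by 0.56 and another at 0.072 that did not pass. Il6ra, the receptor that binds IL-6, rose by 0.50 on its brighter probe set and had a difference of 0.021 on the other, which did not pass. Il6, Osmr, Tnfrsf1a, Il1r1 and Il6st were picked after their values were seen. Il6 itself had log2 levels of 9.06, 9.12 and 9.04 on the CD73+ arrays and 8.65, 8.59 and 8.49 on the CD73- arrays, and rose by 0.50 (SE 0.064, limma adjusted p = 0.00196). All CD73+ arrays exceeded all CD73- arrays. Osmr, the oncostatin M receptor, rose by 0.43 and passed on 2 of its 3 probe sets. Tnfrsf1a, the main TNF receptor, rose by 0.42, and Il1r1, the IL-1 receptor, by 0.28 on 1 of its 2 probe sets. The Il1r1 call was lost on leaving out CD73- replicate 1 or 2 or CD73+ replicate 1 or 2 (limma adjusted p 0.0530 to 0.0683). Lif, a cytokine of the same family, was the only one of the list to fall, by 0.36 (limma adjusted p = 0.00778), although scaling to the poly-A controls turned this to 0.57. Il1a, Il1b, Tnf, Osm and Il11 had differences between -0.17 and 0.032 that did not pass. Il6st, which encodes gp130, had a difference of -0.13 on its brightest probe set (limma adjusted p = 0.155), and 1 of its other probe sets fell by 0.54.

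Of 15 genes of signalling and transcription, 4 were higher and 4 lower, with a median of -0.083. Cebpd, the C/EBP factor known for its rapid induction in the acute phase, had log2 levels of 10.49, 10.55 and 10.42 on the CD73+ arrays and 9.17, 9.20 and 9.18 on the CD73- arrays. It rose by 1.30 (SE 0.058, limma adjusted p = 8.59e-05), and by 0.57 on a dimmer probe set. Cebpb, the other C/EBP factor of this response and also picked after its value was seen, differed by -0.094 and did not pass (limma adjusted p = 0.366). Socs3, the feedback inhibitor that STAT3 induces, rose by 1.24 (SE 0.078, limma adjusted p = 0.000166), and its 3 probe sets rose by 1.08 to 1.24. Stat3, picked after its values were seen, had a difference of 0.19 on its brightest probe set (limma adjusted p = 0.0786) and rose by 0.26 to 0.60 on the 3 others.
The NF-kB genes were divided. Nfkb2, Relb and Rela, 3 subunits of NF-kB, fell on the deposited scale, by 0.96 (SE 0.070, limma adjusted p = 0.000257), 0.44 and 0.38, but scaled to the poly-A controls Relb and Rela turned to 0.48 and 0.55 and Nfkb2 no longer passed, at -0.035. A dimmer probe set of Nfkb2 had -0.21 and did not pass. Nfkbiz, a nuclear partner of NF-kB, rose by 0.67, and by 0.25 to 0.95 over its 3 probe sets. Nfkbia, the inhibitor of NF-kB, rose by 0.23 and passed on 2 of its 5 probe sets, whose differences ran from 0.093 to 0.24. Nr3c1, the glucocorticoid receptor, fell by 0.29 on the deposited scale and turned to 0.63 when scaled to the poly-A controls. It passed on 2 of its 6 probe sets, whose differences ran from -0.80 to 0.025. Leaving out any 1 of CD73- replicates 1 and 2 and CD73+ replicates 1 and 2 ended both the Nfkbia and the Nr3c1 call (limma adjusted p 0.0663 to 0.103 and 0.0548 to 0.0798). Rela, Nfkbiz, Nfkbia and Nr3c1 were also picked after their values were seen.

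**Figure D3:**
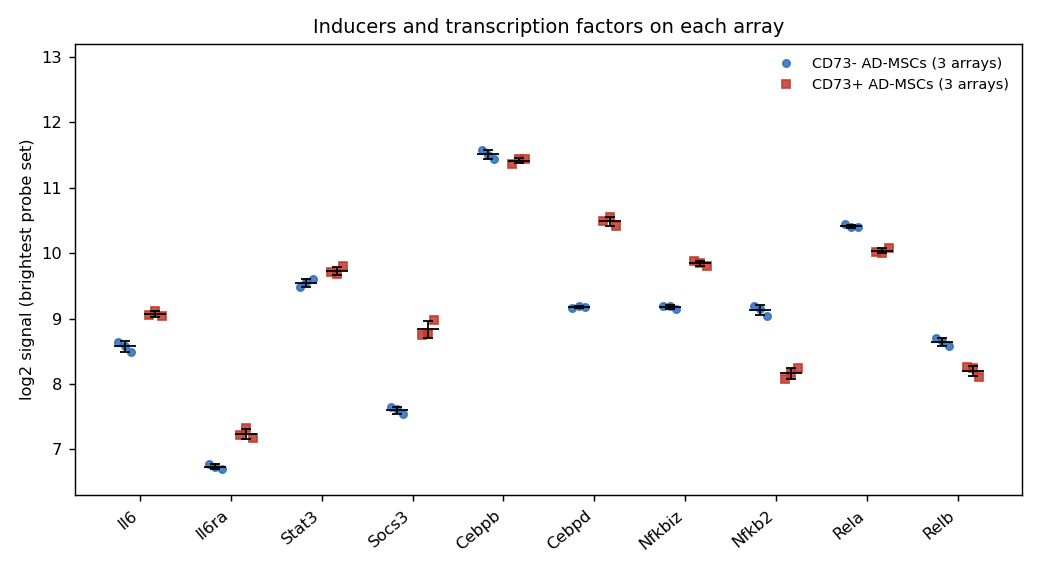
Log2 signal (vertical axis, brightest probe set of each gene) of 10 inducers and transcription factors on each of the 3 CD73- (blue circles) and 3 CD73+ (red squares) arrays, with mean (line) and SD (bar). Socs3 and Cebpd show the widest gaps upwards, 1.24 and 1.30, and Nfkb2 downwards, -0.96, a gap that nearly closes to -0.035 under the poly-A scaling.

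Of 24 other positive acute-phase proteins, 8 were higher and 1 was lower, with a median of 0.092. Serping1, the inhibitor of the first complement proteases, had 6.92, 6.82 and 6.67 on the CD73+ arrays and 5.60, 5.94 and 5.54 on the CD73- arrays, and rose by 1.11 (SE 0.12, limma adjusted p = 0.000948). Lbp, which carries bacterial lipopolysaccharide, had 6.47, 6.55 and 6.51 against 5.18, 5.46 and 5.61 and rose by 1.10 (SE 0.11, limma adjusted p = 0.000684), while its dimmer probe set had 0.16 and did not pass. In both genes every CD73+ array lay above every CD73- array. Cp, ceruloplasmin, a copper-carrying oxidase of iron, rose by 1.01 (SE 0.085, limma adjusted p = 0.000414), and all 8 of its probe sets rose, by 0.41 to 1.42. Il1rn, the antagonist of the IL-1 receptor, rose by 0.80 and on all 3 of its probe sets. Cd14, the partner of Lbp, rose by 0.50, Mt2 and Mt1, metal-binding metallothioneins, by 0.38 and, on 1 of its 2 probe sets, 0.24, and Cfb, complement factor B, by 0.34. Mt1 no longer passed on leaving out CD73- replicate 1 or 2 or CD73+ replicate 1 or 2 (limma adjusted p 0.0549 to 0.0879), and Cfb on leaving out CD73- replicate 1 or CD73+ replicate 1 or 2 (limma adjusted p 0.0542 to 0.0857). Cp, Il1rn, Cd14, Mt2, Mt1 and Cfb were picked after their values were seen.
Fgb, a fibrinogen chain, fell by 0.50 (SE 0.088, limma adjusted p = 0.00701) to 3.54 ± 0.11 (SD, n = 3), at a level above only 23.6% of probe sets, and turned to 0.42 when scaled to the poly-A controls. Of the relatives of the genes examined here, the measured Saa4, Orm2 and Orm3 had differences of 0.029, -0.062 and 0.22, none of which passed. Crp and Apcs, the short pentraxins, had -0.16 and 0.049 and did not pass either. Serpina3c, Serpina3f, Serpina3g, Serpina3k and Serpina3m, relatives of Serpina3n in the list, had no probe set with 1 symbol and were not read.

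**Figure D4:**
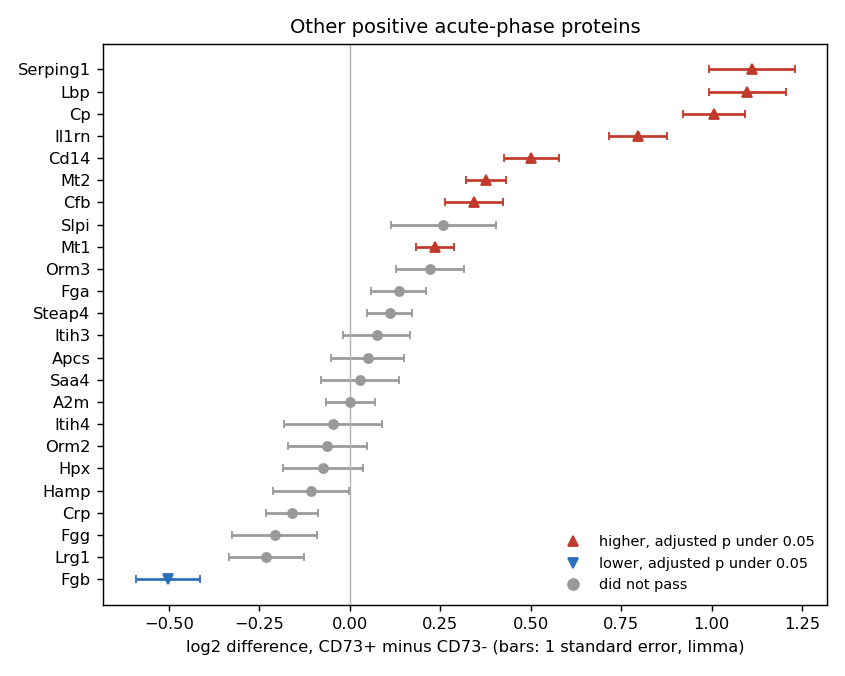
Log2 difference, CD73+ minus CD73- AD-MSCs (horizontal axis), of 24 other positive acute-phase proteins, with bars of 1 standard error from limma. Red triangles were higher and the blue triangle lower at an adjusted p under 0.05, grey circles did not pass, and Serping1, Lbp and Cp lie at 1.11, 1.10 and 1.01.

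Negative acute-phase proteins, which liver makes less of during the response, showed no call. Of 7 measured, 0 were higher and 0 lower by limma, 0 and 0 at an unadjusted p under 0.05 from limma, and 0 and 0 by the methods' t-test, adjusted or not, which takes each probe set alone with equal variances and is named by the paper for the study in general, not for the arrays. The smallest p values were those of Ahsg, fetuin-A, with a difference of -0.25, and Rbp4, the retinol carrier, with 0.12. Without CD73+ replicate 3 Ahsg fell by 0.42 (limma adjusted p = 0.0357), at a dim signal that exceeded only 36.5% of probe sets over all arrays. Alb, Rbp4, Serpina6 and Serpinc1 were dimmer still. A fall in such dim signals may go unseen, so the lack of a call says little about these genes. Ttr and Apoa1 had signals above the array medians on their brightest probe sets and did not pass either. Their other probe sets were dimmer, at 0.35% to 10.8% for Ttr and 42.3% to 46.7% for Apoa1, and none passed.

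Of 16 receptors and partners of the acute-phase proteins, 2 were higher and 2 lower, with a median of 0.038. Tnfaip6, a matrix protein that binds Ptx3, rose by 0.50 (SE 0.063, limma adjusted p = 0.00175). Tlr2, a receptor that serum amyloids can engage, rose by 0.37. Lrp2, a receptor that takes up Lcn2, fell by 0.60 on 1 of its 3 probe sets, and Tlr4, the receptor of lipopolysaccharide, by 0.24 on 1 of its 4, and both turned, to 0.33 and 0.69, when scaled to the poly-A controls. Tlr2 no longer passed on leaving out CD73- replicate 2 or CD73+ replicate 1 or 2 (limma adjusted p 0.0550 to 0.0589), and Tlr4 on leaving out any 1 of the arrays except CD73+ replicate 1 (limma adjusted p 0.0579 to 0.127). Slc22a17, the other Lcn2 receptor, had 0.12, and Fpr2, a serum amyloid receptor, -0.033, and neither passed.

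Iron handling was read because Lcn2, Hp and Cp all act on iron or heme. Of 11 genes measured, 4 were higher and 0 lower by limma, with a median of 0.12, and 4 were higher and 1 lower at an unadjusted p under 0.05. By the methods' t-test after Benjamini-Hochberg adjustment the counts were 3 and 1. Hmox1, heme oxygenase, rose by 0.46 (SE 0.063, limma adjusted p = 0.00253). Tfrc, the transferrin receptor, rose by 0.48 on its brightest probe set but fell by 0.86 and 0.54 on its others. No single direction holds for it on the deposited scale. Scaling to the poly-A controls adds 0.93 to each difference, more than either fall. Ireb2, an iron sensor, and Bdh2, an enzyme of a mammalian iron carrier, rose by 0.27 and 0.26, and both were picked after their values were seen. On leaving out CD73- replicate 2 or any of CD73+ replicates 1 and 2 only 2 genes of this list were higher, the calls of Ireb2 (limma adjusted p 0.0530 to 0.0559) and Bdh2 (limma adjusted p 0.0611 to 0.0981) having ended; that of Bdh2 also ended without replicate 3 of either subgroup.

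**Figure D5:**
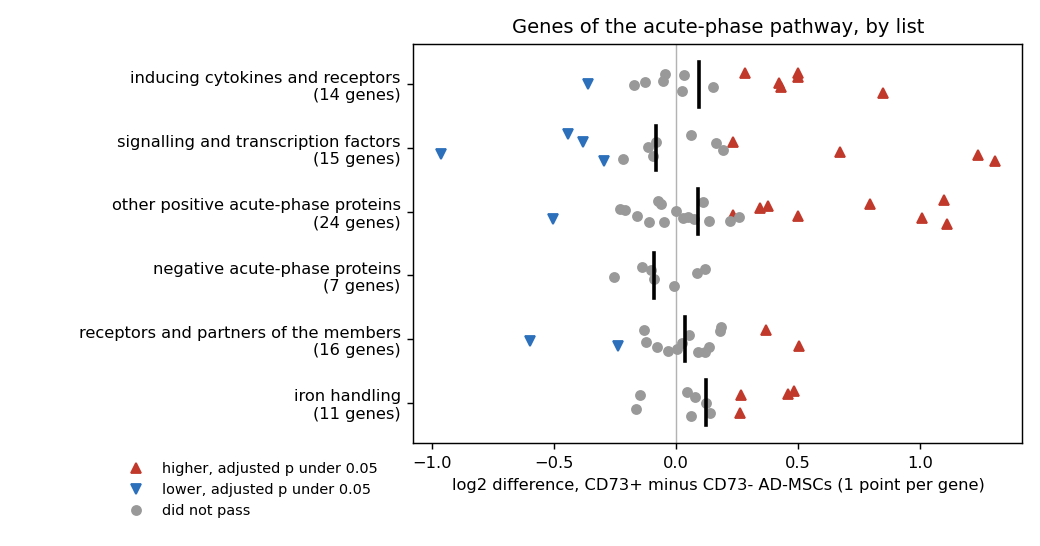
Log2 difference, CD73+ minus CD73- AD-MSCs (horizontal axis), of each measured gene in 6 lists around the acute-phase proteins, 1 point per gene, with a black bar at the list's median. Red triangles (higher) and blue triangles (lower) have a limma adjusted p under 0.05, grey circles do not, and the medians lie between -0.090 and 0.12 while single genes reach 1.30 and -0.96.

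Markers of the cell types that can make these proteins were read on the same arrays. Over all genes read, 10.1% were higher and 12.6% lower, and nothing is read from the marker counts against these shares. Of 9 stromal markers 5 were higher and 0 lower by limma, with a mean log2 level per gene of 9.03 to 9.07 on the CD73+ and 8.59 to 8.61 on the CD73- arrays, and Thy1, Cd44 and Itgb1 exceeded 93.6%, 98.1% and 98.5% of probe sets while Lum exceeded only 19.5%. Of 8 macrophage markers 2, Csf1r and Cd14, were higher and 0 lower, with a mean level of 5.07 to 5.12 against 4.87 to 4.96. The defining Ptprc, Itgam and Adgre1 had means that exceeded only 10.6%, 13.8% and 37.4% of probe sets. Csf1r, Cd14, Cd68, Lyz2 and Fcgr1 exceeded 65.6%, 63.4%, 53.8%, 51.4% and 45.7%. Of 7 mesothelial markers 2, Msln and Cldn15, were higher and 0 lower, with a mean level of 4.51 to 4.63 against 4.29 to 4.45. Upk3b and Wt1 exceeded 29.0% and 20.3% of probe sets, and Krt8, the brightest of the list, 50.9%. Of 8 neutrophil markers 1, Camp, was higher and 0 lower, with a mean level of 4.29 to 4.41 against 4.14 to 4.37. S100a8 and S100a9 were at 19.5% and 21.1%, and Camp, the brightest of the list, at 54.6%. Of 6 adipocyte markers none passed on its brightest probe set, with a mean level of 4.23 to 4.31 against 4.29 to 4.39. However, 2 dimmer probe sets of Fabp4 rose by 1.78 and 0.98. Adipoq was at 11.6% and Retn, the brightest of the list, at 58.3%. Of 7 endothelial markers none passed, with a mean level of 4.08 to 4.14 against 3.99 to 4.14. Of 8 hepatocyte markers Fgb alone fell, on the deposited scale and not when scaled to the poly-A controls, with a mean level of 4.93 to 5.07 against 5.04 to 5.14. The part of these cell types, and of the poly-A difference, in the levels of Saa3 and Lcn2 was not tested, and a larger share of producing cells and more RNA per cell cannot be told apart in such bulk samples.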

How the data were processed

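RNA of 3 CD73+ and 3 CD73- AD-MSC samples was measured on Affymetrix mouse expression arrays. The table the authors deposited holds log2 values for 45101 probe sets, made with RMA per the submitters' processing notes (background correction, normalization between arrays, summary of probes); its version was not given in the sources used here. RMA removes shifts shared by most transcripts and compresses small ratios. The number of arrays limits the precision, with a median SD within a subgroup of 0.088. After setting 64 control probe sets aside, the other 45037 entered lmFit and eBayes of limma 3.58.1 (R 4.3.3), with no block and no filter and with Benjamini-Hochberg adjustment over all and a threshold of 0.05. The paper names no test for the arrays. For the study in general it names ANOVA and Tukey's t-test, at a threshold of 0.05. The methods' t-test, an equal-variance t-test between the subgroups, stands in for that comparison at the same threshold. Files held no comparison columns of the authors.
Probe sets were named from the platform annotation: 34945 had 1 symbol, 932 several and 9160 none, and the Entrez ID of 34741 matched RefSeq, with 0 symbols changed. No probe set with several symbols held an acute-phase gene examined here. Promoters came from RefSeq (GRCm38.p6). The genes and lists were chosen with earlier results of these data known. The 6 lists hold 102 genes from general knowledge, and 15 entries had no probe set with 1 symbol and were not analysed here. Named were all probe sets of the acute-phase genes, up to 2 genes with the largest rise and 2 with the largest fall past the threshold in each list (or, with no call, the 2 of smallest p), and the 3 genes nearest to Saa3 and to Lcn2. Alternatives were 4 scalings, a replicate block, a filter at the median level, another variance prior, the methods' t-test, gene means and leaving out each array. Figures were drawn with matplotlib 3.10.9.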

Additional observations from a re-analysis of the deposited data

How the results depend on the processing

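On scaling to the poly-A controls the differences became 3.27 for Saa3, 2.86 for Lcn2, 0.83 and 0.84 for the Saa1 probe sets, 0.82 for Saa2, 1.22 for Hp, 1.19 for Orm1, 0.88 and 0.96 for the Ptx3 probe sets and 1.54 for Serpina3n, with 44707 probe sets higher and 33 lower against 4408 and 4105 on the deposited scale. In the lists it gave 14 higher and 0 lower inducers and receptors, 14 and 0 signalling genes, 24 and 0 other positive and 7 and 0 negative acute-phase proteins, 16 and 0 receptors and partners, and 11 and 0 iron genes. It turned Lif to 0.57, Relb to 0.48, Rela to 0.55, Nr3c1 to 0.63, Fgb to 0.42, Ahsg to 0.67, Lrp2 to 0.33 and Tlr4 to 0.69, since it adds 0.93 to every difference. The other scalings kept the direction and the overlap of all acute-phase probe sets, and median centring ended the calls of Nfkbia, Mt1 and Bdh2.
The mean of a gene's probe sets gave -0.0069 for Ptx3 and -0.31 for Tfrc, and in the lists 2 lower inducers and receptors, 1 lower receptor or partner and 1 lower iron gene. A filter at the median level, which tests fewer probe sets, gave 2 lower inducers and receptors, 0 lower positive acute-phase proteins, 1 higher and 1 lower receptor or partner, and 1 lower iron gene. A trended and robust prior gave 2 lower inducers and receptors and 1 lower iron gene. The methods' t-test gave 6188 lower probe sets at an unadjusted p under 0.05. It gave 2 lower inducers and receptors and 1 lower iron gene whether adjusted or not. After adjustment it gave 1 higher and 0 lower receptors and partners, with the calls of Tlr2, Lrp2, Tlr4, Cfb and Bdh2 lost. The mean of probe sets ended the calls of Tlr4 and Mt1. For these the cause was not tested.
Same-numbered arrays did not deviate together (correlations of -0.14, 0.028 and -0.14). Such correlations, from 3 arrays per subgroup, cannot tell whether the same number marks a shared mouse, culture or batch. The labels do not say either. A replicate block gave 2713 lower probe sets, 1 lower receptor or partner and 2 higher iron genes, and ended the calls of Tlr4, Il1r1, Nfkbia, Nr3c1, Mt1, Ireb2 and Bdh2 (limma adjusted p 0.0547 to 0.0860).
Leaving out each array gave 2794 to 4199 higher and 2525 to 3907 lower probe sets, with the lowest counts without CD73+ replicate 1 and also 2896 higher without CD73+ replicate 2 and 2563 lower without CD73- replicate 2. It gave 0 to 1 lower negative acute-phase proteins, 1 to 2 higher and 1 to 2 lower receptors and partners, and 2 to 4 higher iron genes.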
